A study of Mus musculus with 6 samples.

Results

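The genes described here are 10 components of podosome and sealing zone signalling, and they were followed in RNA-seq of mouse bone marrow-derived macrophages (BMMs). They were chosen by symbol from the deposited table, for their place in this pathway and with earlier results of these data known. The set is Src, Ptk2b, Pxn, Cbl, Vav3, Rac1, Rac2, Rhou, Cttn and Sh3pxd2a. They are 10 of the 24940 genes in the table, and all 10 were among the 11595 that were tested, those whose 6 libraries averaged 0.5 RPKM or more. RPKM is the number of reads divided by the transcript length in kilobases and by the mapped reads, on a fixed depth scale.

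Primary bone marrow cells came, per the labels, from C57BL/6 mice aged 6 to 8 weeks and were grown with M-CSF, the growth factor that keeps macrophages alive. M-CSF was given to all 3 groups, at 30 ng/mL and over 3 days. The -R group had nothing else, the +R group also had RANKL, the cytokine that drives macrophages to become osteoclasts, at 100 ng/mL, and the R+LE group had the same RANKL with 10 μg/mL of LE, a methanolic leaf extract of the shrub Abeliophyllum distichum. Each group had 2 libraries of 29390230 to 34846400 mapped reads, and 3 reads on a transcript of 1 kb corresponded to 0.0861 to 0.102 RPKM.

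Osteoclasts grip bone through podosomes, small columns of branched actin ringed by integrins and adaptor proteins. On bone the podosomes pack into the sealing zone, which closes off the space into which acid and proteases are released. Integrin engagement activates the kinases Src and Pyk2, which recruit the adaptor and ubiquitin ligase c-Cbl, while Vav3 loads Rac GTPases that drive actin assembly. Mice without Src have osteoclasts that do not resorb bone and develop osteopetrosis.

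With RANKL, Src, Cttn, Sh3pxd2a, Rhou and Rac2 rose, Ptk2b and Vav3 fell, and Pxn, Cbl and Rac1 did not pass the test. When LE was added to RANKL, Src, Cttn, Sh3pxd2a and Rhou fell and Ptk2b rose, so these 5 moved back toward their level without RANKL, whereas Vav3 stayed at its low level. The fall of Rhou rested on few reads and did not pass under several alternative settings, given below. Rac2 was also lower with LE but missed the threshold. Passing means an adjusted p under 0.05 from limma's moderated test on log2(RPKM + 0.5), adjusted over all 11595 genes, and a gene is called where it also changed at least 2-fold on that scale, which understates the change of low genes.

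**Figure D1:**
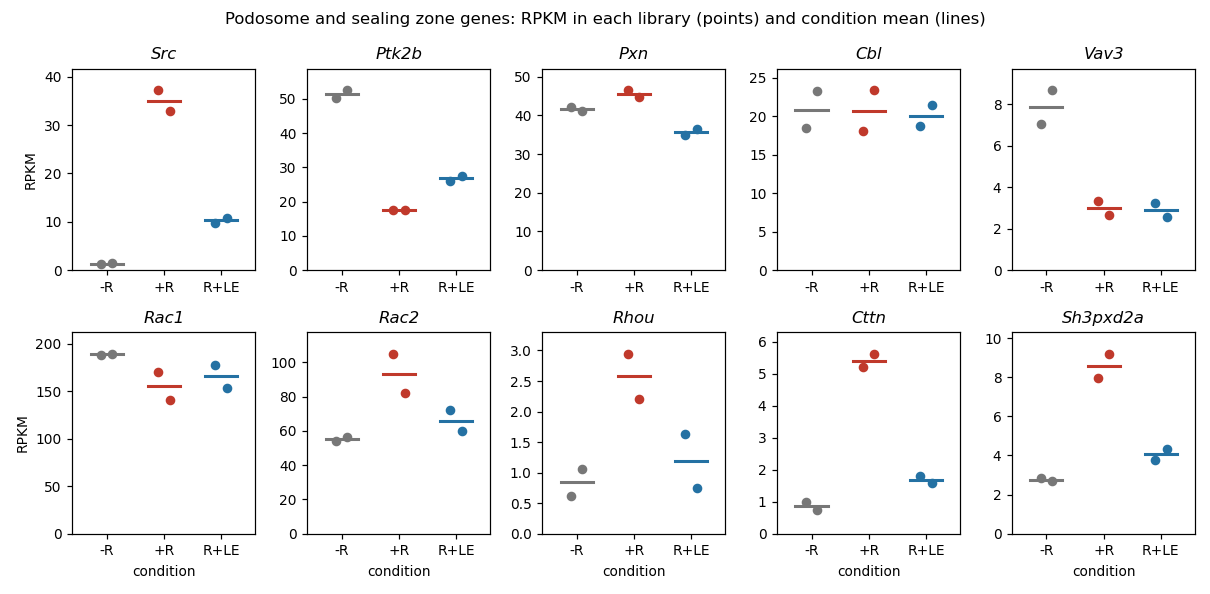
RPKM (vertical axes, each starting at 0) of the 10 genes in the 6 libraries by condition (horizontal axes); points are libraries and lines are the means of 2 libraries. Src, Cttn, Sh3pxd2a and Rhou were highest in both +R libraries, Ptk2b was lowest there, Vav3 was low in all 4 libraries with RANKL, and Cbl overlapped in all 3 conditions.

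Src, the non-receptor tyrosine kinase that starts adhesion signalling in osteoclasts, lies at chr2:157424293-157471838 on the plus strand of mm10, and the counted transcript has 14 exons. Its level was 1.32 and 1.37 RPKM in the -R libraries, 37.2 and 32.9 RPKM in the +R libraries and 9.79 and 10.8 RPKM in the R+LE libraries. All 3 groups were apart, with +R at the top and R+LE between the others. The lowest of these values rested on 149 reads and the highest on 4403. The rise with RANKL was 4.27 on the log2 scale (SE 0.14, limma adjusted p = 4.3e-12), the 24th highest of the 11595 genes. The fall with LE was -1.72 (SE 0.14, limma adjusted p = 1.11e-06), the 44th lowest, and the ratio of the mean RPKM values put R+LE 3.4-fold below +R. Even so, R+LE stayed above -R by 2.55 on the log2 scale (limma adjusted p = 2.03e-09). In a bulk library, fewer cells of a type and less RNA per cell cannot be told apart.

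Ptk2b encodes Pyk2, the focal adhesion kinase of macrophages and osteoclasts, which binds Src once it has phosphorylated itself; it lies at chr14:66153257-66281052 on the minus strand. It moved the opposite way to Src. Its level was 50.2 and 52.6 RPKM without RANKL, 17.5 and 17.4 RPKM with RANKL, and 26.0 and 27.6 RPKM with RANKL and LE. The groups did not overlap, and the +R libraries were the lowest. The fall with RANKL was -1.53 on the log2 scale (SE 0.13, limma adjusted p = 2.21e-07), the 507th lowest of all genes tested. LE raised it by 0.61 (SE 0.13, limma adjusted p = 0.00729), short of 2-fold, and the R+LE level stayed under that of -R by a log2 difference of -0.93 (limma adjusted p = 7.07e-05).

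Neither adaptor passed in any of the 3 comparisons. Pxn encodes paxillin, a scaffold that docks kinases at adhesions, and lies at chr5:115506676-115555987 on the plus strand. Its level was 42.2 and 41.1 RPKM in -R, 46.5 and 44.6 RPKM in +R, and 35.0 and 36.4 RPKM in R+LE. These 3 groups were ordered and did not overlap, and the largest difference was that between R+LE and +R. The change with RANKL was 0.13 on the log2 scale (95% confidence interval -0.16 to 0.42, limma adjusted p = 0.461), and that with LE was -0.35 (-0.64 to -0.06, limma adjusted p = 0.125).

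Cbl encodes c-Cbl, the ubiquitin ligase and adaptor that Src phosphorylates, at chr9:44149262-44234046 on the minus strand. Its level was 18.4 and 23.3 RPKM in -R, 18.1 and 23.4 RPKM in +R, and 18.7 and 21.4 RPKM in R+LE. Here the spread within a group was larger than any difference between groups, and all 3 groups overlapped. The log2 change with RANKL was -0.01 (95% interval -0.36 to 0.34, limma adjusted p = 0.961), and with LE it was -0.04 (-0.38 to 0.31, limma adjusted p = 0.939). These intervals leave room for changes of up to about that size in either direction.

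Vav3 is the exchange factor that charges Rac with GTP downstream of integrins and M-CSF. The table counts it on a short transcript at chr3:109574007-109685694 on the plus strand, which starts 233354 bases downstream of the full-length start and has 10 exons and 287 codons, against 27 exons and 847 codons of the full-length form. Since 93.6% of the bases of the short transcript lie in exons of the long one, reads of both forms were counted together. The level was 7.05 and 8.69 RPKM in -R, 3.34 and 2.65 RPKM in +R, and 3.26 and 2.58 RPKM in R+LE. The R+LE libraries fell in the same range as the +R libraries, and both were clear of -R. Vav3 fell with RANKL by 1.26 on the log2 scale (SE 0.17, limma adjusted p = 1.81e-05) and lay below -R by a log2 difference of -1.29 with LE as well (limma adjusted p = 2.26e-05). The difference between R+LE and +R was -0.03 (95% interval -0.39 to 0.33, limma adjusted p = 0.95).

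Which start of Vav3 these cells used was not measured, since reads of both forms were counted together. The DNA upstream of the internal start is shown because it belongs to the transcript on which the table counts the gene. It is the first 150 of the 250 bases before the start, chr3:109573757-109573906 on the plus strand, 5′ to 3′, taken from RefSeq for GRCm38.p6, the assembly of mm10. Capitals mark a GGAAA core, the letters that NFAT proteins bind, and a TGANTCA element of the kind that AP-1 binds.
Vav3 internal start: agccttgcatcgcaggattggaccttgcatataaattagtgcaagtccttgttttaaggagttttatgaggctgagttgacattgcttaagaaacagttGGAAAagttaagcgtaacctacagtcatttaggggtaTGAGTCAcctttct
Searched on both strands, the GGAAA core was present in 55.6% of 32851 promoters of 250 bases and the TGANTCA element in 6.75%. The full 250 bases held 42.4% G and C, against a median of 52.4%, and 3 CpG, against a median of 6. The full-length starts of Vav3 held neither motif in their 250 bases. These matches are descriptions of letters, and binding was not measured.

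Rac1 and Rac2, the GTPases that switch on branched actin assembly, were the most abundant genes of the set in every group. Rac1 is expressed in most tissues, whereas Rac2 belongs to blood cells. Rac1 lies at chr5:143505481-143527993 on the minus strand, and 462 bases of its counted exons are shared with Daglb on the opposite strand. Rac2 lies at chr15:78559169-78572783 on the minus strand and shares no counted base with another gene. Their coding sequences, each of 192 codons, are 77.1% identical, and the last 60 bases are shown because they encode the C-terminal tail that targets these proteins to membranes and tell both genes apart. Capitals mark bases that differ, 27 of 60, in the coding strand read 5′ to 3′ from GENCODE M21 transcripts, at chr5:143506978-143507037 for Rac1 and chr15:78561911-78561970 for Rac2, each within 1 exon.
Rac1: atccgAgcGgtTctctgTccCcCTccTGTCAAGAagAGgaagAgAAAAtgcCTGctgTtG
Rac2: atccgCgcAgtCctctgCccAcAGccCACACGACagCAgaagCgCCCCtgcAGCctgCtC
Identity was 55% in this stretch and 79.7% before it. The longest run of identical bases between the counted transcripts of both genes was 29 bases, shorter than a 100-base read, so a whole read could be told apart. The same held for the 20 pairs made of any of the 10 genes and its close relatives, of which 0 shared a run of 100 bases.

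Rac1 stood at 188 and 189 RPKM in -R, 171 and 141 RPKM in +R, and 178 and 153 RPKM in R+LE. The -R libraries were the highest, and the libraries of the other groups overlapped each other. The change with RANKL was -0.28 on the log2 scale (95% interval -0.63 to 0.07, limma adjusted p = 0.176), and that with LE was 0.09 (-0.26 to 0.44, limma adjusted p = 0.827). Under quantile normalization the RANKL difference, then -0.24, passed with a limma adjusted p of 0.0342.

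Rac2 was at 53.9 and 56.3 RPKM in -R, 105 and 82.1 RPKM in +R, and 72.2 and 59.8 RPKM in R+LE. Both +R libraries lay above all others, and the R+LE libraries were just above those of -R. The rise with RANKL was 0.75 on the log2 scale (SE 0.16, limma adjusted p = 0.00151), under 2-fold. The difference between R+LE and +R was -0.50 (95% interval -0.84 to -0.15) and missed the threshold, with a limma adjusted p of 0.0621. It passed in 7 of 17 alternative settings, among them without +R replicate 2 (-0.67, limma adjusted p = 0.0355) and without R+LE replicate 1 (-0.63, limma adjusted p = 0.0163).

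Rhou encodes Wrch1, an atypical GTPase of the Cdc42 branch that localizes to podosomes, and lies at chr8:123653929-123663880 on the plus strand. It rested on few reads, 61 and 125 without RANKL, 304 and 228 with it, and 173 and 77 once LE was added. Its level was 0.62 and 1.07 RPKM in -R, 2.94 and 2.21 RPKM in +R, and 1.63 and 0.75 RPKM in R+LE. Both +R libraries were above the rest, while the R+LE and -R libraries overlapped. The rise with RANKL was 1.21 on the log2 scale (SE 0.25, limma adjusted p = 0.0011), and it was 0.96, under 2-fold, without -R replicate 1. The fall with LE was -0.90 (SE 0.25, limma adjusted p = 0.0281). Leaving out -R replicate 1, -R replicate 2, +R replicate 1 or R+LE replicate 2 raised that adjusted p to 0.0566, 0.0588, 0.0728 and 0.264, with log2 changes of -0.90, -0.90, -0.73 and -0.52. R+LE differed from -R by 0.30 (limma adjusted p = 0.381), which became 0.69 without R+LE replicate 2 (limma adjusted p = 0.0477) and -0.08 without R+LE replicate 1.

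Of the genes of the set that rose with RANKL, Rhou is the one whose 250 bases before the start could be shown whole. They are chr8:123653679-123653928 on the plus strand, again from RefSeq for GRCm38.p6, with the capitals marking a GGAAA core on the opposite strand.
Rhou: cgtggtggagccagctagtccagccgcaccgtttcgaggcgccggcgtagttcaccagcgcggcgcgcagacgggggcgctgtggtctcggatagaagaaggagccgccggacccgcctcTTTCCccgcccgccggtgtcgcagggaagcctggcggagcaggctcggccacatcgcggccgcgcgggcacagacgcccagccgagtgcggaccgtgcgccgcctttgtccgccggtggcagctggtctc
This stretch held 73.2% G and C and 36 CpG, both far from the 42.4% and 3 CpG upstream of the internal start of Vav3. The full-length starts of Vav3, at 73.2% and 78.4% G and C, and those of Src (82.8%) and Cbl (71.6%) were nearer to it. Besides the 1 GGAAA core the Rhou stretch held 1 CANNTG E-box, present in 66.2% of promoters, and 0 TGANTCA elements. The 250 bases before the internal start of Vav3 held 2 E-boxes. Promoters were found for 4 of the 10 genes. That of Src held 0 GGAAA cores, 0 TGANTCA elements and 1 GAGGAA box, the letters that PU.1 binds, which 23.3% of promoters held. That of Cbl held 3 GGAAA cores and 1 GAGGAA box. A GAGGAA box that is followed by A also holds a GGAAA core, so these motifs can overlap.

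Cttn and Sh3pxd2a build the podosome core. Cttn encodes cortactin, which binds and stabilizes branched actin, and lies at chr7:144435724-144470935 on the minus strand. Its level was 1.001 and 0.73 RPKM in -R, 5.20 and 5.62 RPKM in +R, and 1.80 and 1.58 RPKM in R+LE. The groups did not overlap, and R+LE was nearer to -R than to +R. Cttn rose with RANKL by 2.12 on the log2 scale (SE 0.17, limma adjusted p = 8.84e-08), the 167th highest of all genes tested. It fell with LE by 1.43 (SE 0.17, limma adjusted p = 4.52e-05), the 83rd lowest, and its mean RPKM was 3.2-fold lower than in +R. It remained 0.69 above -R (limma adjusted p = 0.00588), a difference that was 0.54 and no longer passed without -R replicate 2 (limma adjusted p = 0.0641).

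Sh3pxd2a encodes Tks5, the scaffold that Src phosphorylates and that podosomes need to form and to degrade matrix, and it lies at chr19:47260174-47464411 on the minus strand. Its level was 2.82 and 2.69 RPKM in -R, 7.95 and 9.19 RPKM in +R, and 3.75 and 4.35 RPKM in R+LE. As for Cttn, the groups did not overlap and R+LE was nearer to -R. The rise with RANKL was 1.47 on the log2 scale (SE 0.15, limma adjusted p = 9.4e-07). The fall with LE was -0.99 (SE 0.15, limma adjusted p = 0.000329), just short of 2-fold on this scale, while the mean RPKM was 2.11-fold lower. It remained 0.48 above -R (limma adjusted p = 0.0199), which no longer passed without -R replicate 1, -R replicate 2 or R+LE replicate 2 (limma adjusted p = 0.074, 0.102 and 0.103), or without a filter on low values (limma adjusted p = 0.072).

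**Figure D2:**
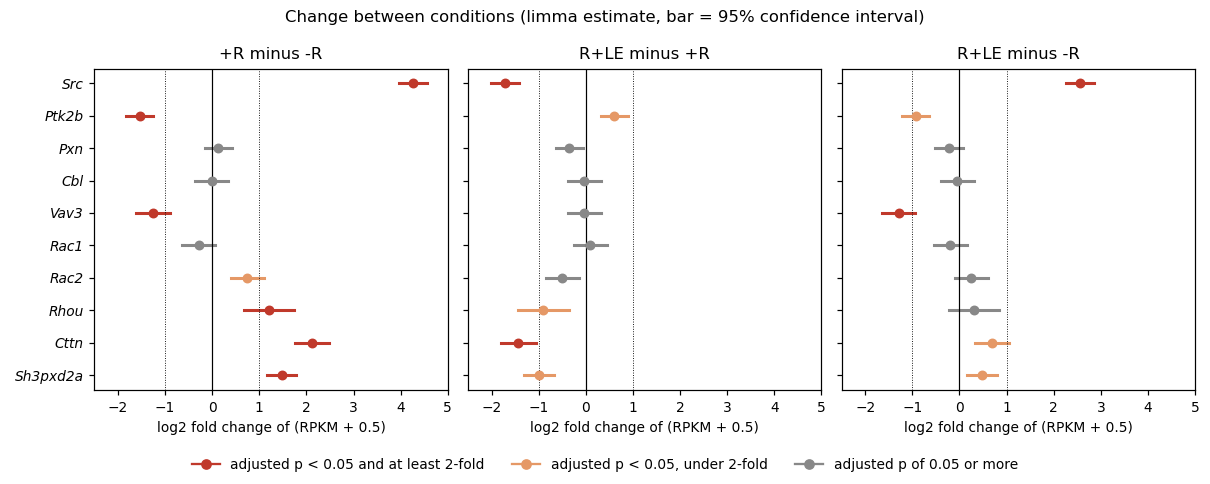
Log2 fold change of RPKM + 0.5 (horizontal axes) for each gene in the 3 comparisons; points are limma estimates, bars 95% confidence intervals, dotted lines mark 2-fold, and colour gives the outcome of the test. With RANKL, Src at 4.27 lies far to the right and Ptk2b at -1.53 farthest to the left; with LE, Src at -1.72 and Cttn at -1.43 lie beyond 2-fold.

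Since the set was chosen with earlier results of these data known, the shares below describe it and are no test of it. Counted over the set, RANKL raised 5 of 10 genes and lowered 2, where 23.9% of all genes tested passed as higher and 21.5% as lower. Of these, 4 were called as higher (Src, Cttn, Sh3pxd2a and Rhou) and 2 as lower (Ptk2b and Vav3), against 6.58% and 8.92% of all genes. The median log2 change was 0.44 over the 10 genes and 0.05 over all genes, and 9 of the 10 had groups that did not overlap, as did 75.2% of all genes. With LE, 1 gene passed as higher and 4 as lower, against 5.19% and 6.86% of all genes. By limma 0 were called as higher and 2 as lower (Src and Cttn), against 1.46% and 1.78%. At an unadjusted p under 0.05, 1 was higher and 6 were lower, a rule whose share over all genes was not counted. Voom called 0 as higher and 4 as lower, where it called 250 and 275 of all 11595 genes. Here the median was -0.42, against -0.05, and 7 of the 10 had groups that did not overlap, where 49% of all genes did not. Between R+LE and -R, 3 genes passed as higher and 2 as lower, against 15.3% and 19%, and 1 (Src) was called as higher and 1 (Vav3) as lower, against 3.92% and 6.36%. That median was 0.10, against -0.01, with 8 of the 10 not overlapping, against 65.5% of all genes. A pseudocount of 1 in place of 0.5 left 5 genes called with RANKL, since the rise of Rhou was then 0.96, under 2-fold. Calls over all genes fell as well, from 763 higher and 1034 lower to 625 and 893. With a pseudocount of 0.1 in place of 0.5, or with voom on the recovered reads, 4 genes were called as lower with LE, since Sh3pxd2a and Rhou passed 2-fold as well. Over all genes, calls as lower with LE rose too, from 206 to 250 with that pseudocount and to 275 with voom. The comparisons share libraries, so the fall of a gene with LE and its rise with RANKL were read from the same +R libraries and are not independent. With 2 libraries against 2, the smallest p that an exact permutation test of 1 gene can reach is 0.333, and the labels do not say that the libraries came from separate cultures, so the p-values measure the spread between these libraries.

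The order of the genes by level also shifted. Without RANKL it ran from Rac1 through Rac2, Ptk2b, Pxn, Cbl, Vav3, Sh3pxd2a and Src to Cttn and Rhou, whose libraries overlapped. With RANKL, Src moved from the 8th to the 4th place and Ptk2b from the 3rd to the 6th, and Vav3 and Rhou, at the bottom, overlapped. With RANKL and LE, Ptk2b was 4th and Src 6th, and Cttn and Rhou overlapped at the bottom. No other neighbours overlapped in any group. Rac1, Rac2 and Cbl kept the 1st, the 2nd and the 5th place in all 3 groups.

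Several of these genes have close relatives, so each level was set against its gene family. Whether a relative stands in for a gene of the set was not tested. The Src family is given first. Its summed level was 160 and 164 RPKM in -R, 147 and 131 RPKM in +R, and 130 and 116 RPKM in R+LE, so the sum was lower with RANKL, while the share of Src in it went from 0.82% and 0.83% to 25.4% and 25.1%, and to 7.55% and 9.30% with LE. Lyn, the main Src family kinase of macrophages, fell with RANKL by 1.04 on the log2 scale (limma adjusted p = 4.68e-05), and its share went from 49.2% and 52.1% to 29.1% and 28.4%. Fgr, another myeloid member, rose with RANKL by 2.53 (limma adjusted p = 7.5e-10) as Src did. With LE, though, Fgr was at 20.6 and 20.1 RPKM, next to 23.0 and 20.8 RPKM in +R, a log2 difference of -0.10 (95% interval -0.39 to 0.18, limma adjusted p = 0.746). The interval for Src under LE was -2.01 to -1.42, and the difference between both genes was not tested.

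Among the focal adhesion kinases, Ptk2b made up 89.8% and 89.6% of the summed level without RANKL, 71.6% and 74.3% with RANKL and 72.9% and 74.0% with RANKL and LE. Its relative Ptk2, which encodes focal adhesion kinase itself, did not pass with RANKL (log2 change 0.12, limma adjusted p = 0.501) and rose with LE by 0.55 (limma adjusted p = 0.0151). Both kinases of this family thus passed as higher with LE. For Cbl, whose own level was flat, the share of the family rose from 70.5% and 71.2% without RANKL to 79.3% and 81.4% with RANKL and to 85.8% and 87.3% once LE was added. Cblb, another ligase of the family, fell with RANKL by 0.71 (limma adjusted p = 0.0011) and again with LE by 0.62 (limma adjusted p = 0.0119). It was at 3.11 and 3.09 RPKM in R+LE against 7.72 and 9.42 RPKM in -R.

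The share of Pxn rose with RANKL and was lower again with LE. Lpxn, the leukocyte relative of Pxn, was at 88.0 and 88.9 RPKM in -R and at 41.8 and 36.7 RPKM in +R, a log2 change of -1.16 (limma adjusted p = 1.01e-05). The share of Pxn in the family went from 32.3% and 31.6% to 52.6% and 54.8%, and it was 38.3% and 42.2% in R+LE. Sh3pxd2b, which encodes the related scaffold Tks4, fell with RANKL by 0.76 (limma adjusted p = 0.000376) and did not differ detectably between R+LE and +R (log2 difference 0.00, 95% interval -0.29 to 0.30). The share of Sh3pxd2a in this pair rose from 8.27% and 6.94% to 29.6% and 31.0% with RANKL and was 15.8% and 18.3% with LE.

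Cortactin was the minor form throughout. Hcls1, its blood cell relative, made up at least 94.2% of the pair in every library, and the share of Cttn was 0.82% and 0.54% without RANKL, 4.82% and 5.79% with RANKL, and 1.46% and 1.48% with RANKL and LE. Vav1, the blood cell exchange factor, made up 70.7% to 77.9% of the Vav family in the 6 libraries, and it fell with RANKL by 1.03 (limma adjusted p = 2.81e-05) as Vav3 did. Vav2 did not pass (log2 change -0.06, limma adjusted p = 0.765). In the Rac family, the share of Rac2 was 21.9% and 22.5% without RANKL, 37.97% and 36.7% with RANKL, and 28.7% and 27.97% with RANKL and LE. Rac3 was a small part of it and fell with RANKL by 1.84 (limma adjusted p = 3.75e-07). Rhou and its relative Rhov moved apart, since Rhov fell with RANKL by 1.90 (limma adjusted p = 3.27e-07), and the share of Rhou went from 8.84% and 12.6% to 63.5% and 63.6%. With LE that share was 54.8% and 40.3%.

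**Figure D3:**
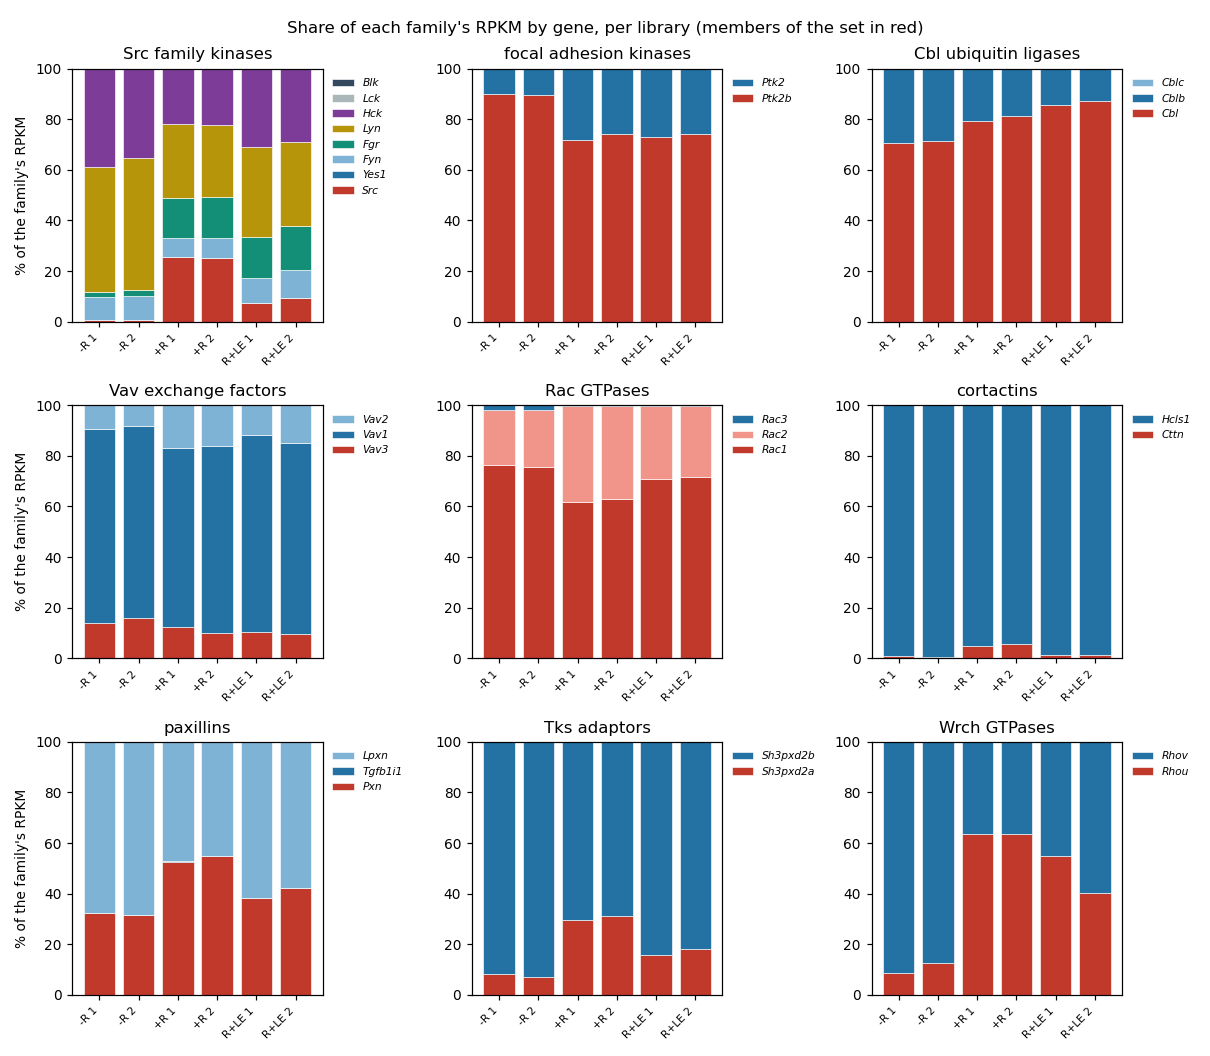
Percentage of each family's summed RPKM (vertical axes, 0 to 100) that each gene made up in the 6 libraries (horizontal axes); the genes of the set are in red. The share of Src rose from under 1% in -R to 25.4% and 25.1% in +R and was 7.55% and 9.30% in R+LE, while Cttn stayed a small part next to Hcls1 in every library.

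The wider machinery was taken from 4 lists of podosome genes that leave out the 10, with 144 genes in all, of which 134 were tested. These lists, too, were chosen with earlier results of these data known. RANKL raised 28 of the 134 (20.9%) and lowered 48 (35.8%), against 23.9% and 21.5% of all genes, and 11 (8.21%) were called as higher and 21 (15.7%) as lower, against 6.58% and 8.92%. The median log2 change was -0.22, against 0.05 over all genes. LE raised 4 (2.99%) and lowered 14 (10.4%), against 5.19% and 6.86% of all genes, with a median of -0.03, against -0.05. By limma 0 were called as higher and 2 (1.49%) as lower, against 1.46% and 1.78%. At an unadjusted p under 0.05, 15 were higher and 22 lower, a rule whose share over all genes was not counted. Voom called 1 as higher and 3 as lower, where it called 250 and 275 of all 11595 genes. Against -R, the R+LE libraries had 21 (15.7%) higher and 47 (35.1%) lower, against 15.3% and 19% of all genes, of which 7 (5.22%) and 17 (12.7%) were called, against 3.92% and 6.36%.

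In the list of kinases and phosphatases, 9 of 30 tested genes (30%) rose and 11 (36.7%) fell with RANKL, against 23.9% and 21.5% of all genes. The called genes, 2 (6.67%) and 3 (10%) against 6.58% and 8.92%, were Fgr and Pak1, an effector kinase of Rac, as higher, and Ptpra, a phosphatase that activates Src, Inppl1 and Lyn as lower. Ptpra fell by 1.79 (limma adjusted p = 9.49e-08). LE raised 1 gene of this list, Ptk2 (3.33%), and lowered 2 (6.67%), against 5.19% and 6.86% of all genes, and the largest change was in Pik3cb, a catalytic subunit of PI3-kinase, at -0.96 (limma adjusted p = 0.000453). Against -R, Fgr and Pak1 were called as higher with LE present, and Ptpra, Inppl1 and Ptpre as lower. These are 2 (6.67%) and 3 (10%) of the 30, against 3.92% and 6.36% of all genes.

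Among the adhesion adaptors, 7 of 30 (23.3%) rose and 9 (30%) fell with RANKL, against 23.9% and 21.5% of all genes. Bcar1, which encodes the Src substrate p130Cas, rose by 2.49 (limma adjusted p = 1.72e-08), from 0.36 and 0.29 RPKM to 4.31 and 3.92 RPKM. Vcl, which encodes vinculin, and Pstpip1 and Pstpip2 were also called as higher, while Evl, Gab1, Lpxn, Parvb, Nck2 and Tns1 were called as lower, Evl by the most at -2.40. These 4 (13.3%) and 6 (20%) called genes stand against 6.58% and 8.92% of all genes. With LE, 5 of 30 (16.7%) fell and 0 rose by limma, against 6.86% and 5.19% of all genes. At an unadjusted p under 0.05, 9 of the 30 were lower and 5 higher, and voom passed 7 as lower and 4 as higher. The shares of all genes under these 2 looser rules were not counted, so the limma shares are no measure for them. Pstpip1, an adaptor that binds the phosphatase PTP-PEST, was at 84.9 and 101 RPKM in +R and at 46.6 and 35.5 RPKM in R+LE, next to 46.8 and 36.1 RPKM in -R. Its log2 change with LE was -1.17 (limma adjusted p = 0.000346). Bcar1 also fell with LE, by 0.62 (limma adjusted p = 0.0293). In R+LE against -R, Bcar1 and Pstpip2 were called as higher and Evl, Tns1, Gab1, Cblb, Gab2 and Parvb as lower. These are 2 (6.67%) and 6 (20%) of the 30, against 3.92% and 6.36% of all genes.

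In the list of actin assembly and podosome core genes, 3 of 38 (7.89%) rose and 11 (28.9%) fell with RANKL, against 23.9% and 21.5% of all genes, and 2 (5.26%) were called in each direction, against 6.58% and 8.92%. Mmp14, the membrane-anchored matrix protease of podosomes, had the largest change of the 4 lists, from 1.90 and 1.41 RPKM to 60.9 and 59.3 RPKM, a log2 rise of 4.82 (limma adjusted p = 2.87e-12). Myo10, an unconventional myosin, rose by 2.32 (limma adjusted p = 1.78e-08), and the formin genes Diaph2 and Diaph1 were called as lower. With LE, Mmp14 was at 9.61 and 11.02 RPKM, a log2 change of -2.49 (limma adjusted p = 8.41e-08), and 4 of 38 genes (10.5%) fell while 1 (2.63%) rose, against 6.86% and 5.19% of all genes. Mmp14 and Myo10, 2 of the 38 (5.26%), were still called as higher than in -R, against 3.92% of all genes. By limma 0 were called as lower than in -R, against 6.36%, while 12 (31.6%) passed as lower, against 19%.

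**Figure D4:**
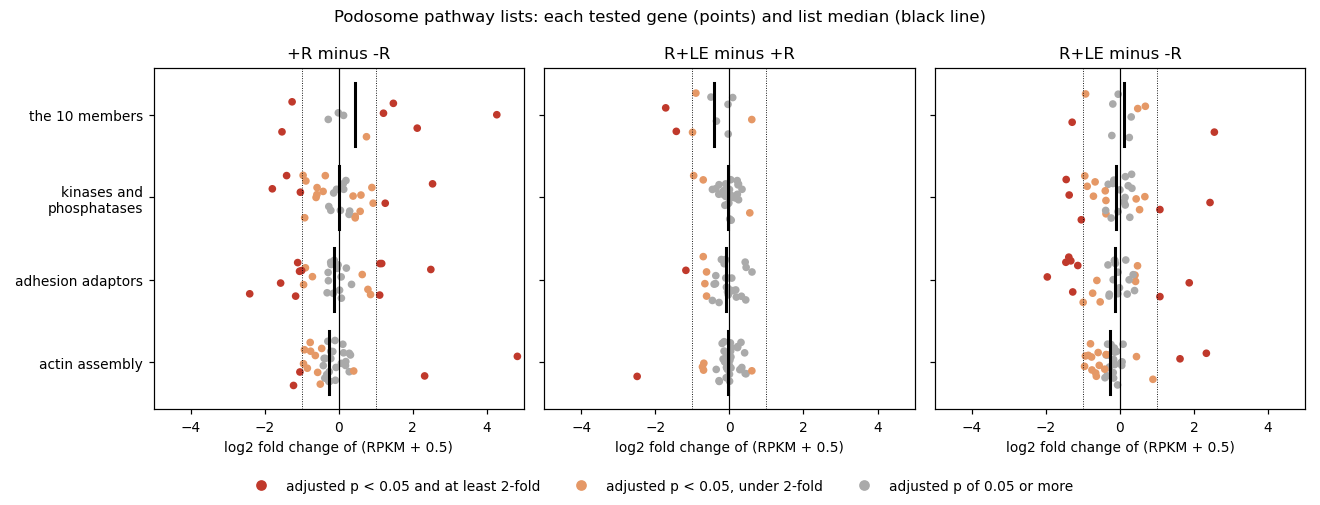
Log2 fold change of RPKM + 0.5 (horizontal axes) of each tested gene in the set of 10 and in 3 of the lists (rows) for the 3 comparisons; black lines are medians, dotted lines mark 2-fold, the height of a point within its row has no meaning, and colour gives the outcome of the test. The LE comparison is narrow in the 3 lists shown, with Mmp14 at -2.49 and Pstpip1 at -1.17 as the called genes outside the 10.

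The genes whose profile was nearest to that of Src, of all those tested, were found by the Euclidean distance between log2 profiles centred on each gene's mean over the 6 libraries. They were Il4i1, an amino acid oxidase, at a distance of 0.35, Myo1d, an unconventional myosin, at 0.38, Mst1r, a receptor tyrosine kinase, at 0.41, Rufy4 at 0.43 and Gstt1 at 0.46. Myo1d went from 0.98 and 0.80 RPKM in -R to 22.1 and 21.4 RPKM in +R and to 6.76 and 6.25 RPKM in R+LE. It followed Src in every group at a somewhat lower level. Rufy4 was listed at 0 in both -R libraries.

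Cell type markers moved with the conditions as well. The summed level of 8 osteoclast markers was 43.2 to 44.8 RPKM in -R, with Calcr and Oscar at 0, 1866 to 2123 RPKM in +R and 329 to 380 RPKM in R+LE. The summed level of 7 macrophage markers was 6657 to 7244 RPKM in -R, 2691 to 3455 RPKM in +R and 3760 to 4202 RPKM in R+LE, so these markers were detected in all 6 libraries. All 8 osteoclast markers were higher in +R than in -R by their means and lower again in R+LE, the direction of Src, Cttn and Sh3pxd2a. Of the 7 macrophage markers, 6 were lower in +R than in -R. Among these, 3 (Adgre1, Cd14 and Lyz2) were then higher in R+LE, the direction of Ptk2b, while Cd68, Csf1r and Mrc1 were lower still. Itgam was higher in +R than in -R and higher again in R+LE. Most of the macrophage sum was Lyz2, and without it the sum was 1595 to 1673 RPKM in -R, 877 to 1006 RPKM in +R and 832 to 1011 RPKM in R+LE. The part of these markers in the results was not tested. The summed level of 6 neutrophil markers was 15.5 to 17.2 RPKM in -R and at most 2.53 RPKM in the other groups, and that of 6 stromal and osteoblast markers was 7.99 to 15.9 RPKM in all. T cell, B cell, dendritic cell and erythroid markers summed to at most 1.61 RPKM in any library, and the 3 mast cell markers were at 0. Reads on the ribosomal RNA gene Rn45s made up 4.97% to 6.83% of gene reads without RANKL and 10.9% to 13.5% with it. With these reads left out of the depth, 7 of the 10 genes passed with RANKL and 5 with LE, as before.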

How the data were processed

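BMMs of 3 conditions were sequenced, 2 libraries each, and samples were grouped by the condition in their labels. Per the labels the mice were C57BL/6 of 6 to 8 weeks and the cells were in 48-well plates, whereas the paper's methods give ICR mice of 6 to 7 weeks and 6-well plates. The authors aligned the reads to mm10 (TopHat in the methods, HISAT2 in the submitters' processing notes, which also name HOMER and DESeq2), counted exon reads on either strand with HOMER, 1 transcript a gene, and deposited RPKM values, titled FPKM. Depth was recovered from the values, which were within 0.1 of whole reads for 100% of 4504 to 5193 values checked in each library. Of the gene symbols, 26 turned into dates were restored.

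limma 3.58.1 in R 4.3.3 fitted log2(RPKM + 0.5) of all 6 libraries with a variance trend, for genes averaging 0.5 RPKM or more, with Benjamini-Hochberg adjustment. The script was tested on simulated data. Alternatives changed the pseudocount, filter, scaling, variance trend, libraries and test. Python 3.11.15 (numpy 2.4.6, pandas 2.3.3, matplotlib 3.10.9) was used for the rest. The named genes are the 10, their close relatives, the called and most changed genes of 3 of the 4 lists (the 4th is counted in the totals and is not reported on its own here), and the 5 nearest to Src. The genes of the set, the lists and the tests were chosen with earlier results of these data known. A gene named outside this rule was chosen after its values were seen. Counting strand-blind cannot separate Rac1 from Daglb where they overlap.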

Additional observations from a re-analysis of the deposited data

How the results depend on the processing

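Each result was recomputed under 11 alternative settings and with each of the 6 libraries left out. Of 510 recomputed log2 changes of the 10 genes, 468 kept their direction and their side of the threshold, 12 no longer passed, 10 passed only then and 20 changed sign. With LE, 4 genes were called in place of 2 with a pseudocount of 0.1 and 4 with voom on the recovered reads. Calls over all genes rose as well, from 169 higher and 206 lower to 240 and 250 with that pseudocount. With voom they were 250 and 275. The members past the threshold between R+LE and -R ranged from 3 to 5 with 1 library left out, the lowest without -R replicate 2. With all libraries kept, quantile normalization gave 6 members past the threshold between R+LE and -R, where 5 passed before. It gave 8 with RANKL, where 7 passed before. For LE against +R, 5 had passed, against 4 without a filter and 6 with a filter at a mean of 1 RPKM. The sign changes were those of Cbl, Vav3 and Rac1, with differences near 0, and of Rhou between R+LE and -R. For Cbl they were, with LE, 0.0148 under median centring and 0.0214 under quantile normalization; between R+LE and -R, 0.007, 0.0487 and, with Rn45s left out of the depth, 0.0269; and with RANKL, 0.0273 under quantile normalization and 0.0489 without Rn45s. For Vav3 with LE they were 0.0204 under median centring and 0.0053 under quantile normalization. The cause was not tested. With 1 library left out, the log2 change of Cbl ranged from -0.1926 to 0.1701 with RANKL, from -0.2175 to 0.1452 with LE and from -0.2126 to 0.1178 between R+LE and -R, that of Vav3 with LE from -0.174 to 0.1128, that of Rac1 with LE from -0.0482 to 0.2296, and that of Rhou between R+LE and -R from -0.0796 to 0.687. The fall of Rhou with LE did not pass without a filter (limma adjusted p = 0.245), under quantile normalization (0.062) or with only the compared groups (0.0543). Replicates of the same number were correlated in their deviations at -0.05 between -R and +R, 0.11 between -R and R+LE and 0.25 between +R and R+LE. The numbers were not taken to pair the libraries, since the study's methods name no block. With the replicate as a block, the calls of the 10 genes stayed as they were except that Rac2 passed as lower with LE (-0.4962, limma adjusted p = 0.0181). The outcome for Rac2 with LE thus depended on this choice. At 61 to 304 reads for Rhou and 79 to 534 for Cttn, depth limits these 2 genes most.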
